A study of Mus musculus with 4 samples.

Results

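Mesothelial nuclei of the mouse ventricle, the nuclei of the epicardial cell sheet that covers the heart, were picked out of single-nucleus RNA sequencing data of frozen ventricles. A nucleus was a member when it held at least 3 unique molecular identifiers (UMIs, each standing for 1 captured transcript) over at least 2 of the genes Msln, Upk3b, Wt1, Lrrn4, Muc16, Upk1b and Krt19. It also had to carry under 1% of its UMIs in the cardiomyocyte genes Ttn and Ryr2, and at most 2 UMIs each over 3 endothelial genes (Flt1, Ptprb, Pecam1) and 3 macrophage genes (Mrc1, F13a1, Adgre1). The members were thus chosen by the measured UMIs of these genes, whose values are given only as a description. In all, 525 of 19584 nuclei that passed the filters were members, out of 19806 barcodes.

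The mice were wild-type C57BL/6J males and females, 8 weeks old at the start, which had a running wheel or stayed sedentary for 16 weeks. Ventricles were taken without injury (sedentary, running) or 2 weeks after surgery for myocardial infarction (sedentary infarct, running infarct). Hearts were pooled, 2 for each uninjured group and 4 for each infarct group, nuclei were sorted by Hoechst DNA stain, and each pool was loaded in 1 well, so there is 1 library per group and no difference was tested. The hearts of a pool cannot be told apart, and more nuclei of a type cannot be told apart from more nuclei of it being recovered. Values are always given in the order sedentary, running, sedentary infarct, running infarct, and each bracket holds a 95% interval for counting error alone.

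The mesothelium of the heart is a single epithelial sheet that faces the pericardial cavity and rests on a basement membrane. Its cells carry mucins at the surface and hold keratins inside. In the embryo epicardial cells lose their epithelial junctions, enter the heart wall and give rise to fibroblasts and mural cells of vessels. In the adult the sheet is known to be quiet and, after infarction, to thicken, to express genes of the fetal epicardium such as Wt1 and to secrete signals and matrix.

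The libraries held 32899707, 37533722, 26170995 and 29916572 UMIs over 5342, 6133, 3206 and 4903 filtered nuclei. Members had a median of 4543, 5072, 5210 and 4279 UMIs and of 4.94, 8.91, 5.69 and 4.49% mitochondrial UMIs. Y-positive nuclei (2 or more UMIs over 4 Y-linked genes) made up 53, 33.0, 16.9 and 24.1% of members, so the mix of sexes among them differed between the libraries. Barcodes that also occur in another library numbered 25, 31, 17 and 19, and 0, 1, 1 and 0 of these were members. The sedentary library stood apart in heat shock transcripts in every class of nuclei, as described below for the members.

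Members numbered 100, 106, 124 and 195. Their share of filtered nuclei was 1.87% (1.53 to 2.27), 1.73% (1.42 to 2.09), 3.87% (3.23 to 4.59) and 3.98% (3.45 to 4.56). Mesothelial nuclei thus made up a larger share in both infarct libraries than in both uninjured ones. The ratio of shares was 2.07 (1.59 to 2.68) for sedentary infarct over sedentary and 2.30 (1.82 to 2.91) for running infarct over running. Running and sedentary libraries differed less, with ratios of 0.923 (0.704 to 1.21) without infarct and 1.03 (0.825 to 1.28) after it. Under a limit of 5% mitochondrial UMIs, which leaves 51, 8, 46 and 114 members of 1858, 515, 1769 and 2753 nuclei, the first ratio became 0.947, so the larger share after infarct in the sedentary pair rests on nuclei above that limit. The share of fibroblast reference nuclei, which held at least 3 UMIs over at least 2 of Pdgfra, Dcn, Abca8a and Tcf21 and no UMI of the 7 rule genes, was 26.3, 26.1, 24.4 and 11.6% in the same libraries.

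**Figure D1:**
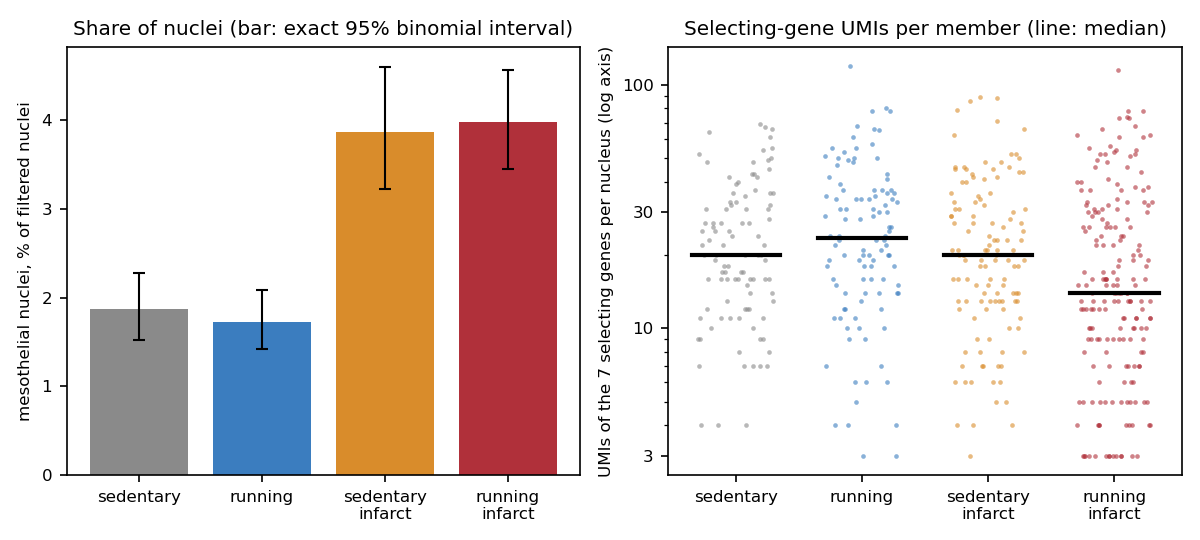
Members and their share of filtered nuclei in the 4 libraries, with 95% binomial intervals, and the UMIs of the 7 rule genes in each member. The share is 1.87 and 1.73% in the uninjured libraries and 3.87 and 3.98% in the infarct libraries.

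The threshold cut through a tail that was longest in the running infarct library. The median number of rule-gene UMIs per member was 20, 23.5, 20 and 14, and 0, 2, 1 and 14 members stood at exactly 3. Just outside the rule, 5, 14, 13 and 29 nuclei held 2 UMIs over 2 rule genes, and 2, 1, 5 and 13 held at least 3 UMIs of a single one. A further 78, 71, 107 and 159 nuclei met the rule on mesothelial genes and were left out for their endothelial, macrophage or cardiomyocyte transcripts. With at least 10 rule-gene UMIs, 86, 93, 102 and 135 members remained.

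Among the genes of the rule, Muc16, a large surface mucin, was found in 94, 96.2, 91.9 and 84.6% of members, against 3.34, 3.10, 5.55 and 5.71% of the other filtered nuclei. Wt1, the zinc finger factor that marks epicardium, was found in 94, 93.4, 81.5 and 86.7% of members and in 8.32, 7.35, 9.70 and 10.6% of other nuclei. CPM, the scale of all levels below, are UMIs of a gene per 1000000 UMIs summed over the members of a library, without mitochondrially encoded genes. On that scale Wt1 stood at 957, 1068, 778 and 856, with no higher level in the infarct libraries. Upk3b, a uroplakin of the apical membrane, was at 445, 598, 311 and 289 CPM, and Upk1b, a tetraspanin uroplakin, at 514, 591, 614 and 693 CPM. Msln, a surface glycoprotein that binds mucin, was at 393, 477, 479 and 399 CPM. Krt19, a keratin, was at 283, 168, 162 and 158 CPM, and Lrrn4, a leucine-rich repeat membrane protein, at 205, 200, 159 and 150 CPM. These levels are a description, since the same genes chose the nuclei.

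Most mesothelial genes that the rule did not use were high in the members, as the label has it. Of 30 such genes, 23 stood at least 5-fold above the fibroblast reference nuclei in all 4 libraries, among them the transcription factor Bnc1, the WNT potentiator Rspo1, the keratins Krt7, Krt8 and Krt18, the endocytic receptor Lrp2 and the tight junction protein Cldn15. Krt14 and Dmkn did so in 3 libraries, and Pdpn, Sbspon, Podxl, Sulf1 and Calb2 in 0. Podxl was lower in members than in fibroblast nuclei in all 4, with ratios of 0.865, 0.413, 0.630 and 0.745. Calb2, the calretinin gene that pathologists use for mesothelium, had no UMI in any member. Summed over the 30 genes, the members reached 22801, 23867, 18189 and 20224 CPM and fibroblast reference nuclei 1502, 1727, 1545 and 1774 CPM. Endothelial reference nuclei reached 3400, 3551, 3286 and 3188 CPM. Of 29 transcription factors of the epicardium and of heart development, 4 (Bnc1, Gata5, Tead4 and Klf5) stood 5-fold above fibroblast nuclei in all 4 libraries, and Tcf21, which marks fibroblasts, was at 12.97, 14.96, 18.97 and 12.1 CPM in members.

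Transcripts of other cell types were present at lower levels, and the lists moved between libraries. Summed fibroblast markers, 15 genes, were at 2706, 2724, 3170 and 2323 CPM in members and at 11895, 13213, 10820 and 9236 CPM in fibroblast nuclei. Over 2 UMIs of the 4 fibroblast genes were found in 60, 64.2, 68.5 and 47.7% of members, so some members may share their droplet with a fibroblast or its RNA, which was not tested. The 15 cardiomyocyte markers summed to 3661, 3251, 4374 and 3061 CPM, against 104499, 107953, 111586 and 110165 CPM in cardiomyocyte nuclei. Vascular endothelial markers were at 890, 1006, 703 and 797 CPM, macrophage markers at 287, 361, 391 and 420 CPM, and lymphatic markers at 378, 385, 261 and 290 CPM. Adipocyte markers, of which 4 of 7 had a UMI, stood at 1368, 1324, 1140 and 1508 CPM. Lymphocyte markers were at 475, 398, 810 and 351 CPM. Endocardial markers, 7 genes, were at 2423, 2430, 2090 and 3843 CPM. Of these Tmem108, like the sum highest in running infarct, and Npr3, lower in both infarct libraries, are described below. Pericyte and smooth muscle markers were highest in the sedentary infarct library, at 290, 163, 544 and 168 CPM. Of the 95 UMIs of Myh11, the smooth muscle myosin, in that library, 88 came from 1 nucleus.

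Infarction was the contrast with more differing genes in mesothelial nuclei. A gene was measured when it had at least 50 UMIs over both libraries, and it was counted as higher or lower when the ratio of CPM was at least 2-fold with its interval on 1 side of even. Of 4996 genes measured between sedentary infarct and sedentary, 187 (3.74%) were higher and 121 (2.42%) lower. Between running infarct and running, 217 of 5694 (3.81%) were higher and 156 (2.74%) lower. These comparisons share no library. Among 4861 genes measured in both, 57 (1.17%) were higher in both and 45 (0.926%) were lower in both. Of 174 genes higher in the sedentary pair and measured in both, 144 had a ratio above even in the running pair, and of 117 lower genes 98 had one below even.

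**Figure D2:**
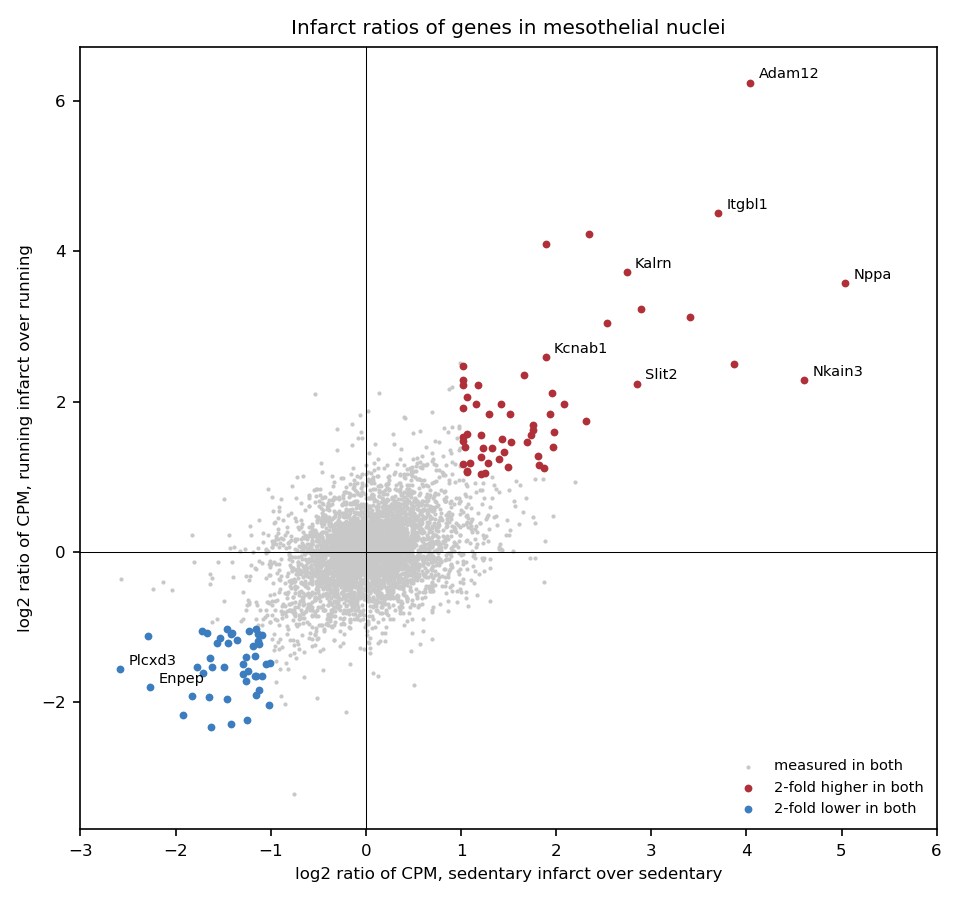
Log2 ratios of CPM in members, sedentary infarct over sedentary (horizontal) against running infarct over running (vertical), 1 point per gene measured in both and reported here. The 57 genes higher in both and the 45 lower in both are coloured, and Itgbl1 lies at 3.70 and 4.51.

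The higher and lower genes differed in where they were expressed before injury. None of the 57 higher genes stood 5-fold above fibroblast, endothelial and macrophage nuclei in both uninjured libraries, whereas 22 (48.9%) of the 45 lower genes did, against 159 (3.27%) of all 4861. By contrast 27 (47.4%) of the higher genes lay at least 2-fold below fibroblast nuclei in both uninjured libraries, against 279 (5.74%) of all. Genes lower after infarct were often those that set uninjured mesothelial nuclei apart, and genes higher after infarct were often ones with more UMIs in fibroblasts. The uninjured level of a gene enters both the infarct ratio and this count, so the 2 are not independent. Fibroblast nuclei, measured the same way, had 163 of 11247 genes (1.45%) higher and 82 (0.729%) lower in both infarct comparisons. Of 56 higher mesothelial genes measured there, 21 were also higher in fibroblasts in both comparisons, and of 35 lower genes 2 were also lower. The median log2 ratio in fibroblasts was 0.68 and 0.83 for the higher genes and -0.54 and -0.61 for the lower genes, against -0.01 and -0.02 for all. No difference between the classes was tested.

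Itgbl1 (ENSMUSG00000032925), a secreted protein built of integrin-like EGF repeats, led the higher genes. It had 21, 25, 404 and 967 UMIs in members, or 45.4, 46.7, 590 and 1064 CPM. Both infarct libraries lay far above both uninjured ones, 12.99-fold (8.38 to 21.2) in the sedentary pair and 22.8-fold (15.3 to 35.3) in the running pair. In fibroblast nuclei Itgbl1 was at 516, 596, 1459 and 1963 CPM, ratios of 2.83 and 3.30. After each nucleus was thinned to 2000 UMIs, leaving out 2, 7, 5 and 34 shallower members, 5.10, 7.07, 40.3 and 44.1% of members had an Itgbl1 UMI. The shares were 10, 15.1, 55.6 and 50.3% unthinned, 39.0, 42.0, 65.6 and 71.9% in thinned fibroblast nuclei and 16.1, 11.9, 30.2 and 30.7% in thinned endothelial nuclei. In running infarct, the 60 members with under 10 rule-gene UMIs had 1641 CPM of Itgbl1 and the other 135 had 941 CPM.

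Several genes of signalling and adhesion followed. Kalrn, a guanine nucleotide exchange factor, stood at 32.4, 43.0, 216 and 571 CPM, 6.66-fold (3.91 to 12.2) and 13.3-fold (8.75 to 21.1) higher after infarct. Slit2, a secreted guidance ligand of Robo receptors, was at 38.9, 65.4, 280 and 309 CPM, 7.20-fold (4.44 to 12.4) and 4.72-fold (3.32 to 6.92) higher. In fibroblast nuclei Slit2 was at 453, 486, 553 and 647 CPM, ratios of 1.22 and 1.33, and members of the infarct libraries stood nearer to that fibroblast level than uninjured members did. Fstl1, a secreted follistatin-like glycoprotein known from epicardial patches, was at 95.1, 163, 374 and 426 CPM, 3.93-fold (2.84 to 5.54) and 2.62-fold (2.07 to 3.34) higher. Ncam1, a homophilic adhesion molecule, was at 56.2, 97.2, 216 and 349 CPM, with ratios of 3.84 and 3.59. Both infarct libraries exceeded both uninjured ones in each of these genes.

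Kcnab1 (ENSMUSG00000027827), a beta subunit of voltage-gated potassium channels, was higher in members and not in fibroblasts. Members had 61, 56, 334 and 572 UMIs, or 132, 105, 487 and 629 CPM, 3.70-fold (2.81 to 4.94) and 6.01-fold (4.56 to 8.06) higher after infarct. Fibroblast nuclei had 144, 131, 91.8 and 124 CPM, ratios of 0.639 and 0.943. After thinning, 17.3, 15.2, 28.6 and 31.1% of members had a Kcnab1 UMI, against 7.94, 7.91, 6.11 and 7.58% of endothelial nuclei. Rtn1, a reticulon of the endoplasmic reticulum, behaved alike, with 45.4, 58.0, 152 and 170 CPM in members, ratios of 3.34 and 2.94, and ratios of 0.738 and 0.608 in fibroblasts. The difference between the classes was not tested for either gene.

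Nkain3, which codes for a membrane protein that binds the sodium pump, had 5, 21, 181 and 174 UMIs. Its CPM was 10.8, 39.3, 264 and 191, with ratios of 24.4 (10.3 to 76.2) and 4.87 (3.09 to 8.07). The uninjured values rest on few nuclei, since 2 sedentary and 3 running members held the gene and 16 of the 21 UMIs in running came from 1 nucleus. It was detected in 1.02, 2.02, 19.3 and 14.9% of thinned members, against 1.08, 0.791, 1.53 and 1.73% of endothelial nuclei. Nav1, a neuron navigator that binds microtubules, was at 92.9, 63.6, 228 and 228 CPM, ratios of 2.45 and 3.58. Rnd3, a small GTP-binding protein that opposes contraction, was at 41.1, 46.7, 118 and 129 CPM, ratios of 2.88 and 2.75. Pdzrn3, a ubiquitin ligase, was at 130, 150, 299 and 357 CPM, ratios of 2.31 and 2.39. Fndc1, a fibronectin type III domain protein, was at 51.9, 33.7, 139 and 132 CPM, ratios of 2.67 and 3.92. For Fndc1 the sedentary pair showed no excess in the nuclei without Y-linked UMIs, where the log2 ratio was -0.02.

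Nppa, the precursor of atrial natriuretic peptide, made by cardiomyocytes, was among the higher genes with very few UMIs before injury. Members had 3, 3, 146 and 61 UMIs, or 6.48, 5.61, 213 and 67.1 CPM, with ratios of 32.9 (11.03 to 161) and 11.96 (3.90 to 59.6). Fibroblast, endothelial and macrophage nuclei showed levels of like size, and the level in cardiomyocyte nuclei is not given here. Nppa was at 10.6, 17.2, 137 and 74.2 CPM in fibroblast, 10.7, 11.9, 160 and 99.7 CPM in endothelial, and 8.66, 9.80, 148 and 94.8 CPM in macrophage nuclei. Whether the UMIs in members come from their own transcripts or from free RNA in the pool was not tested.

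Adam12, a metalloprotease of activated mesenchymal cells, was outside the rule for named genes, because few nuclei held most of its UMIs, and was chosen after its values were seen. It had 3, 2, 73 and 258 UMIs in 1, 2, 19 and 36 members, with ratios of 16.4 (5.41 to 81.5) and 75.9 (20.8 to 630), and 82 of the 258 UMIs in running infarct came from 1 nucleus.

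Matrix genes leaned higher in members after infarct, and their summed level was also higher in the other classes of nuclei. Of 40 collagen and matrix genes, 34 were measured in each infarct comparison, with 9 higher and 1 lower in the sedentary pair and 9 higher and 2 lower in the running pair. Over all measured genes 3.74% were higher and 2.42% lower in the sedentary pair and 3.81 and 2.74% in the running pair, the shares beside which each list's counts stand. The list's median log2 ratio was 0.42 and 0.33, against 0.03 and 0.01 for all measured genes. Col1a1, the main chain of fibrillar collagen, had 40, 29, 169 and 177 UMIs, or 86.4, 54.2, 247 and 195 CPM, 2.85-fold (2.01 to 4.13) and 3.59-fold (2.42 to 5.52) higher. After thinning, 11.2, 7.07, 27.7 and 31.1% of members had a Col1a1 UMI, against 3.79, 5.22, 22.1 and 21.6% of endothelial nuclei. Col5a2, a fibril-nucleating chain, was at 171, 224, 429 and 583 CPM, ratios of 2.51 and 2.60. Col8a1, a short-chain network collagen, was at 117, 72.9, 261 and 286 CPM, ratios of 2.24 and 3.92. Col4a1, of the basement membrane, was at 69.2, 122, 165 and 251 CPM, ratios of 2.38 and 2.06. These 4 chains were higher in both infarct libraries than in both uninjured ones.

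Postn, a matricellular protein of injury fibroblasts, had 7, 7, 77 and 112 UMIs in members, ratios of 7.43 (3.44 to 19.1) and 9.41 (4.42 to 23.95), and was at 108, 115, 981 and 941 CPM in fibroblast nuclei. Sparc, a collagen-binding glycoprotein, was at 225, 198, 470 and 415 CPM, ratios of 2.09 in each pair. Col6a1 was higher only in the sedentary pair by the rule, with ratios of 2.99 and 1.92, and likewise Col15a1 (2.82 and 1.18) and the proteoglycan gene Bgn (2.15 and 1.33). In the running pair Col1a2 (1.79 and 2.22), Col4a2 (1.55 and 2.61) and Col6a2 (1.48 and 2.29) passed and in the sedentary pair they did not. None of these differences between pairs was tested. The lower genes of the list were Lama3 in the sedentary pair and Nid1 and Col4a4 in the running pair. The laminin chain gene Lama3 was 2.38-fold and 1.63-fold lower, Nid1, which links laminin to collagen, 1.25-fold and 2.25-fold lower, and Col4a4 1.64-fold and 2.28-fold lower. Summed over the 40 genes, members stood at 7439, 7101, 9800 and 9667 CPM and fibroblast nuclei at 12709, 12571, 16865 and 18457 CPM. Endothelial nuclei stood at 5740, 5551, 7201 and 8031 CPM, and macrophage nuclei at 1438, 1722, 2241 and 2798 CPM. Cardiomyocyte nuclei stood at 1663, 2233, 2168 and 3259 CPM. In each class the sum was higher after infarct in both pairs. Whether the rise in members differs from that in other classes was not tested.

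The genes of the epithelial to mesenchymal transition list that were higher code for matrix proteins or a matrix protease. Fn1, fibronectin, was at 99.4, 59.8, 201 and 227 CPM, ratios of 2.03 (1.44 to 2.89) and 3.79 (2.60 to 5.68), beside ratios of 4.71 and 6.75 in fibroblasts. Mmp2, a gelatinase, was at 36.7, 29.9, 49.6 and 61.6 CPM, ratios of 1.35 and 2.06. With Sparc, 2 of 13 measured genes of this list were higher in the sedentary pair and 3 of 14 in the running pair (3.74 and 3.81% of all measured genes), none was lower, and the median log2 ratio was 0.38 and 0.37. Of 23 and 24 measured genes of epithelial junctions and polarity, 2 were higher in each pair, with medians of 0.11 and 0.20. None was lower, and at 2.42 and 2.74% of all measured genes a list of this size is too short for that count to be read. Cdh2, N-cadherin, was at 36.7, 15.0, 74.4 and 83.6 CPM, ratios of 2.03 (1.15 to 3.74) and 5.59 (2.70 to 13.4). Cdh3, P-cadherin, was at 162, 142, 241 and 311 CPM, ratios of 1.49 and 2.19, and Dsg2, a desmosomal cadherin, at 45.4, 37.4, 115 and 69.3 CPM, ratios of 2.54 and 1.85.

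Igfbp5 (ENSMUSG00000026185), which codes for a secreted binding protein of insulin-like growth factors, led the lower genes. It had 1167, 1365, 486 and 614 UMIs in members, or 2522, 2552, 709 and 675 CPM. Both infarct libraries lay far below both uninjured ones, 3.56-fold (3.20 to 3.96) lower in the sedentary pair and 3.78-fold (3.43 to 4.16) lower in the running pair. Among members thinned to 2000 UMIs, 89.8, 80.8, 53.8 and 43.5% had an Igfbp5 UMI, against 12.5, 11.1, 9.15 and 7.13% of fibroblast nuclei. The unthinned shares were 95, 89.6, 72.6 and 58.5%. In running infarct, members with under 10 rule-gene UMIs had 409 CPM of Igfbp5 and the others 732 CPM, both below every uninjured value.

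Other genes for surface and secreted proteins were lower too. Cadm2, an adhesion molecule of the immunoglobulin family, was at 1096, 1281, 321 and 440 CPM, 3.41-fold (2.91 to 4.02) and 2.91-fold (2.57 to 3.30) lower. Cadm2 also stands in the list of Schwann cell markers, whose sum in members was 1232, 1451, 490 and 508 CPM. Rarres2, the precursor of the chemoattractant chemerin, was at 618, 638, 225 and 164 CPM, 2.75-fold (2.25 to 3.37) and 3.89-fold (3.20 to 4.75) lower. Gpx3, a secreted glutathione peroxidase, was at 160, 179, 42.3 and 39.6 CPM, 3.78-fold and 4.53-fold lower. Spock3, a secreted proteoglycan, was at 164, 237, 61.3 and 48.4 CPM, 2.68-fold and 4.91-fold lower. In each of these genes both infarct libraries stood below both uninjured ones.

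Enzymes, receptors and a water channel were also among the lower genes. Enpep, the aminopeptidase that trims angiotensin II, was at 169, 183, 35.03 and 52.8 CPM, 4.81-fold (3.01 to 7.95) and 3.47-fold (2.43 to 5.01) lower. Cmah, which hydroxylates sialic acid, was at 642, 854, 207 and 169 CPM, 3.10-fold and 5.04-fold lower. Plcxd3, a phospholipase domain protein, was at 184, 185, 30.6 and 62.7 CPM, 5.99-fold (3.68 to 10.2) and 2.95-fold (2.11 to 4.16) lower. For these 3 enzymes both infarct libraries stood below both uninjured ones. Npr3, the clearance receptor of natriuretic peptides, was at 504, 512, 162 and 192 CPM, 3.11-fold and 2.66-fold lower. Npr3 also marks endocardium. Endothelial reference nuclei, chosen by Flt1, Ptprb and Pecam1 and not split into endocardial and other nuclei, had 458, 451, 586 and 474 CPM of Npr3. Adgrf5, an adhesion receptor, was at 188, 208, 67.1 and 71.5 CPM, 2.80-fold and 2.90-fold lower. Aqp1, a water channel, was at 253, 258, 104 and 91.3 CPM, 2.44-fold and 2.83-fold lower, and was lower in fibroblasts as well, with ratios of 0.513 and 0.356.

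Bmpr1b and Nav2 moved in the opposite direction to fibroblasts. Bmpr1b, a type I receptor for bone morphogenetic proteins, was at 339, 441, 143 and 93.5 CPM in members, 2.37-fold (1.83 to 3.09) and 4.72-fold (3.67 to 6.12) lower. In fibroblast nuclei it was at 8.70, 8.70, 15.6 and 27.8 CPM. Nav2, a neuron navigator related to Nav1, was at 953, 897, 356 and 419 CPM in members, 2.68-fold and 2.14-fold lower, and at 24.8, 27.6, 35.3 and 55.2 CPM in fibroblasts. Csmd1, a large complement control domain protein, was at 257, 574, 81.7 and 150 CPM, 3.15-fold and 3.84-fold lower after infarct, and Peg3, an imprinted zinc finger gene, at 90.8, 87.9, 27.7 and 28.6 CPM, 3.27-fold and 3.07-fold lower. The difference from fibroblasts was not tested.

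**Figure D3:**
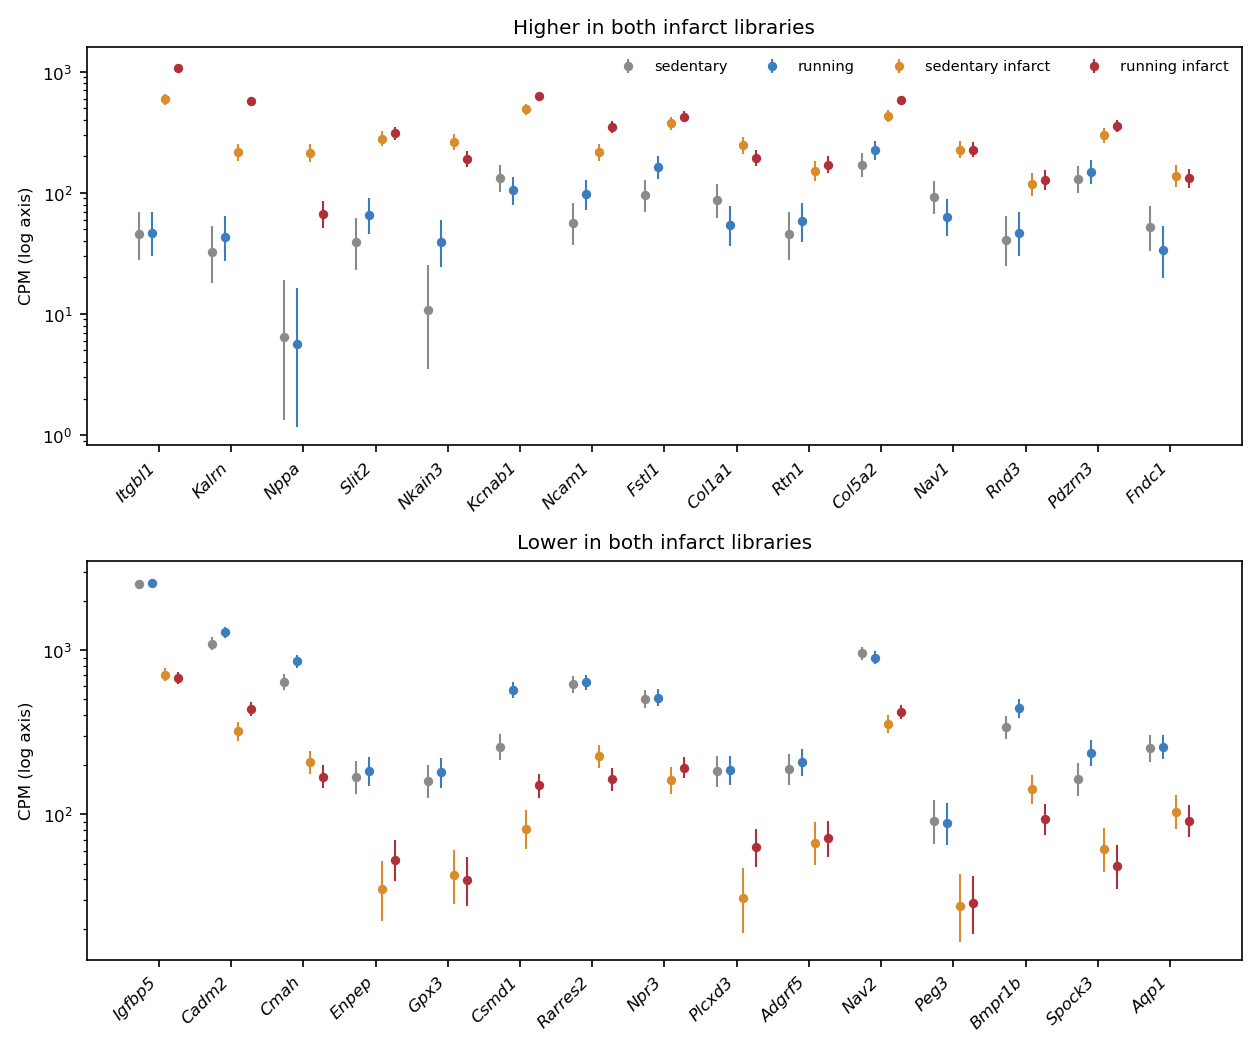
CPM in the members of each library, on a log axis with 95% Poisson intervals, for the named genes that were higher or lower in both infarct comparisons. In the higher genes the infarct points stand above both uninjured points, and in the lower genes below them.

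The direction of these differences was the same in members with few fibroblast transcripts. The genes were chosen over all members, these included, so a shared direction was favoured by the choice and is a description. Members with at most 2 UMIs of the 4 fibroblast genes numbered 40, 38, 39 and 102. Within them all 15 higher genes had ratios above even in both comparisons, 10 and 14 of them at 2-fold or more, and all 15 lower genes had ratios below even, 11 and 14 of them 2-fold or more below. Itgbl1 had 1, 2, 30 and 313 UMIs in these nuclei, or 6.67, 12.5, 206 and 897 CPM. Rnd3 and Pdzrn3 were near even in the sedentary pair, each with a ratio of 1.03 (0.276 to 3.86 and 0.441 to 2.42). In the members with more fibroblast UMIs all 30 genes passed 2-fold in both comparisons. With the fewer nuclei, 2 of the 57 higher and 14 of the 45 lower genes still met the rule in both comparisons, while 53 and 42 had the same direction.

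**Figure D4:**
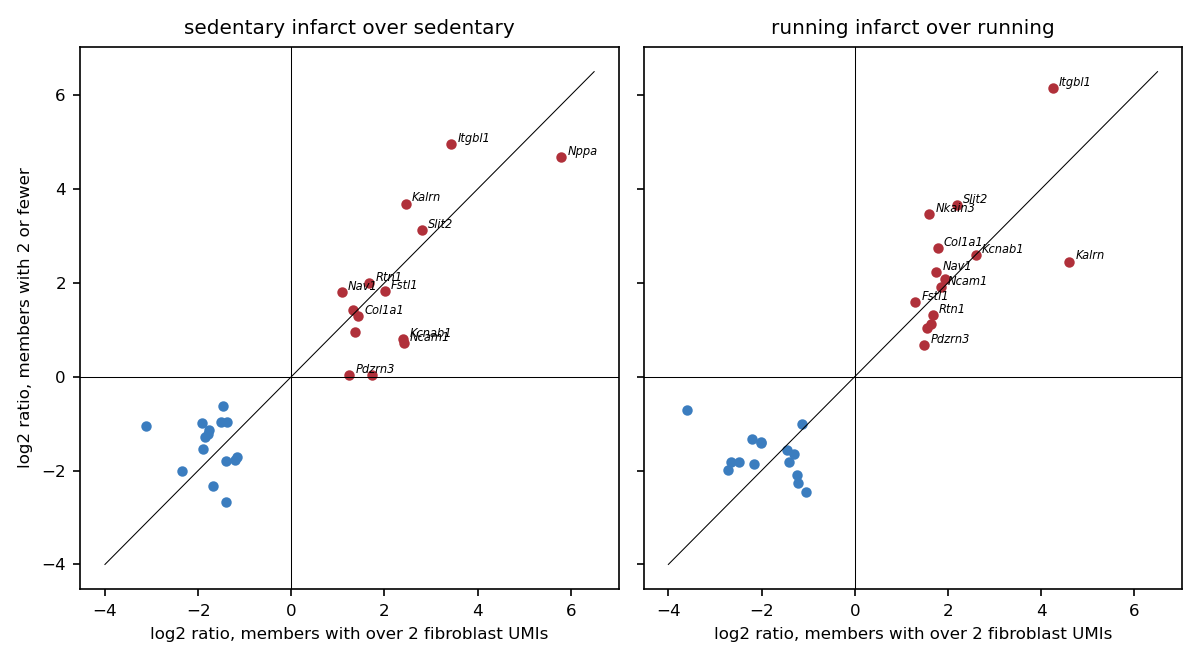
Log2 ratios of the 15 higher (red) and 15 lower (blue) named genes after infarct, in members with over 2 fibroblast UMIs (horizontal) against members with 2 or fewer (vertical), with the line of equal ratios. All drawn red points lie above 0 and all blue points below 0, and Nkain3 (sedentary pair) and Nppa (running pair) are not drawn because a library had 0 UMIs.

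The split by Y-linked transcripts gave a like picture, again for genes chosen over these same nuclei, which favours a shared direction. Among the 57 and 45 genes, 56 and 43 had the same direction in Y-positive members, which numbered 53, 35, 21 and 47, and 55 and 42 in members with no Y-linked UMI. In the former 15 and 13 still met the rule in both comparisons and in the latter 25 and 18, with fewer nuclei in each.

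Of 14 measured epicardial transcription factors none was higher or lower in the sedentary pair, where 3.74 and 2.42% of all measured genes were, too small a share to read a count of 0 in 14. In the running pair Zfpm2, a cofactor of GATA factors, was higher and Tbx20, a T-box repressor, lower, beside 3.81 and 2.74% of all. Zfpm2 was at 1052, 800, 1467 and 1752 CPM, ratios of 1.39 and 2.19. Tbx20 was at 130, 237, 146 and 112 CPM, ratios of 1.13 and 0.473. Tbx18, a T-box factor of the embryonic epicardium, was at 264, 260, 241 and 209 CPM, with ratios of 0.913 (0.718 to 1.16) and 0.804 (0.643 to 1.01). The list's median log2 ratio was -0.07 and -0.11. Aldh1a2, the enzyme that makes retinoic acid in epicardium, was at 402, 282, 226 and 338 CPM, with ratios of 0.563 (0.452 to 0.700) and 1.20 (0.981 to 1.46), on different sides of even. Of 5 and 6 measured retinoic acid genes, Rarres2 alone passed the rule, and it was lower in both pairs.

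The mesothelial genes that the rule did not use had medians of -0.31 and -0.25, against 0.03 and 0.01 for all measured genes. Of 24 measured, 1 (Igfbp5) was lower in the sedentary pair, a share near the 2.42% of all. In the running pair 3 were lower and 1 higher, beside 2.74 and 3.81% of all. Bcam, a laminin receptor, was at 212, 260, 108 and 104 CPM, with ratios of 0.510 and 0.402. Chst4, a sulfotransferase, was at 339, 318, 181 and 129 CPM, 1.87-fold and 2.47-fold lower. The higher gene was Cdh3.

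Secreted signals were mixed. Of 55 genes, 20 and 25 were measured, with 3 higher and 0 lower in the sedentary pair and 5 higher and 2 lower in the running pair, beside 3.74 and 2.42% and 3.81 and 2.74% of all measured genes. Vegfc, the growth factor of lymphatic vessels, was at 86.4, 61.7, 172 and 351 CPM, ratios of 1.99 (1.38 to 2.93) and 5.69 (3.97 to 8.41). Igf1, insulin-like growth factor, was at 23.8, 39.3, 70.1 and 62.7 CPM, ratios of 2.95 and 1.60. Vegfa, the main angiogenic factor, was at 49.7, 80.4, 51.1 and 36.3 CPM, ratios of 1.03 and 0.452, and Bmp4 at 45.4, 72.9, 49.6 and 23.1 CPM, ratios of 1.09 and 0.317. Bmp6 (1.29 and 2.06) and Dkk3, a WNT modulator, at 23.8, 20.6, 37.9 and 52.8 CPM, were higher in the running pair. Only Slit2 and Fstl1 of this list were higher in both.

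The higher genes of the acute phase, complement and cytokine list were C1s1 in both pairs, C4b in the sedentary pair and the interleukin 1 receptor gene Il1r1 in the running pair. C1s1, a serine protease of the complement cascade, was at 110, 110, 223 and 249 CPM in members, ratios of 2.03 and 2.25, and at 158, 173, 126 and 118 CPM in fibroblasts. C4b was at 47.5, 71.0, 149 and 102 CPM, ratios of 3.13 and 1.44. Il1r1 was at 147, 136, 207 and 407 CPM, ratios of 1.41 and 2.98, and Il33, an alarmin of barrier cells, at 233, 275, 155 and 130 CPM, 1.51-fold and 2.12-fold lower. In all, 2 of 14 measured genes were higher in the sedentary pair (3.74% of all genes), and 2 of 19 were higher and 1 lower in the running pair (3.81 and 2.74% of all), with medians of 0.13 and 0.03. Of 13 and 15 interferon genes none was higher, beside 3.74 and 3.81% of all, too small a share to read a count of 0. Irf1 and Gbp2 were lower in the running pair, 2.51-fold and 2.01-fold, beside 2.74% of all genes.

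Targets of YAP and TEAD, which respond to stretch, included 2 genes higher in both pairs of 14 measured, beside 1.17% of all genes measured in both. Ankrd1 was at 23.8, 18.7, 137 and 155 CPM, ratios of 5.77 (3.08 to 11.95) and 8.30 (4.38 to 17.7). Ccn2 was at 12.97, 16.8, 64.2 and 56.1 CPM, ratios of 4.95 (2.10 to 14.2) and 3.33 (1.63 to 7.70). Both were also higher in other classes, with Ankrd1 at 22.1, 55.1, 109 and 123 CPM and Ccn2 at 51.8, 56.6, 228 and 274 CPM in fibroblasts, and Ankrd1, a gene of stressed cardiomyocytes too, at 52.0, 29.4, 122 and 125 CPM in macrophage nuclei. Arhgef17 passed in the running pair only (1.87 and 2.47), and the list's medians were 0.18 and 0.08.

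Smaller lists gave few calls. Of all measured genes, 3.74% were higher and 2.42% lower in the sedentary pair, and 3.81 and 2.74% in the running pair. Lists of this size are too short for a single call to be read. Of 22 and 23 TGF-beta and BMP signalling genes, Bmpr1b was lower in both pairs, Ltbp1 was lower in the running pair (ratios of 1.02 and 0.428), and Ltbp2, which stores TGF-beta in matrix, had 1, 1, 22 and 50 UMIs. Among hyaluronan and lubrication genes, Cemip, a hyaluronidase, had 0, 1, 70 and 30 UMIs, Has1, a hyaluronan synthase, was at 73.5, 37.4, 59.8 and 115 CPM (ratios of 0.814 and 3.09), Ugdh had ratios of 2.21 and 0.981, and Vcan 1.40 and 0.473. Only 5 of 30 cell cycle genes reached 50 UMIs in either pair. The formin Diaph3 (ratios of 2.30 and 1.76) was higher, and Cenpp (0.368 and 1.18) and Atad2 (0.426 and 0.768) lower, in the sedentary pair. Mki67, a marker of cycling cells, was found in 0, 0, 2 and 4 members and Top2a in 0, 1, 0 and 10. Lipid and glucose genes gave Fabp5, 2.32-fold lower in the sedentary pair, and Scd2, 2.46-fold lower in the running pair, of 13 and 14 measured.

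Immediate early genes leaned lower after infarct, with medians of -0.65 over 7 and -0.43 over 9 measured genes of 26. The medians of all measured genes were 0.03 and 0.01. In the sedentary pair 1 was lower, beside 2.42% of all measured genes. In the running pair 3 were lower and 1 higher, beside 2.74 and 3.81% of all. Jund, an AP-1 factor, was at 97.3, 123, 43.8 and 60.5 CPM, 2.22-fold and 2.04-fold lower. In the running pair Nr4a3 and Btg2 were also lower, 2.32-fold and 2.75-fold, and Klf10 was 2.97-fold higher. The medians of the list in fibroblasts were -0.70 and -0.47. Of 11 clock genes measured in the sedentary pair, Per3 (ratio 2.68), Nr1d2 (3.05) and Dbp (2.98) were higher, beside 3.74% of all measured genes. The ratios of Per3 and Nr1d2 in the running pair were 1.03 and 1.30, while Per1 was 2.42-fold lower there, beside 2.74% of all. Npas2 was lower in running than in sedentary, of 12 measured, beside 1.34% of all. Arntl was higher and Per1 and Dbp lower in running infarct than in sedentary infarct, of 12 measured, beside 0.958 and 1.46% of all. Clock output follows the hour of tissue collection, which was not used here.

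Running gave fewer differences. Between running and sedentary, 42 of 4393 genes (0.956%) were higher and 59 (1.34%) lower. Between running infarct and sedentary infarct, 59 of 6157 (0.958%) were higher and 90 (1.46%) lower. These comparisons share no library, and of 4338 genes measured in both, 1 (0.0231%) was higher in both and 0 (0%) were lower in both. Of 39 genes higher in the first and measured in both, 22 had a ratio above even in the second, and of 55 lower genes 32 had one below even.

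The gene higher in both was Pik3c2g, a class II phosphoinositide kinase. It had 20, 47, 16 and 53 UMIs, or 43.2, 87.9, 23.4 and 58.3 CPM, with ratios of 2.03 (1.18 to 3.62) and 2.50 (1.41 to 4.68). Only 15, 25, 10 and 19 members held Pik3c2g, and 12 of its 53 UMIs in running infarct came from 1 nucleus. In Y-positive nuclei the first log2 ratio was -0.24, so the direction depended on which nuclei were taken. Tmem108, a membrane protein of the endocardial list, was at 776, 566, 698 and 1842 CPM, with running infarct above the other libraries. Running infarct was 2.64-fold (2.38 to 2.93) above sedentary infarct and 3.25-fold (2.88 to 3.69) above running. The ratio of running over sedentary was 0.730 (0.625 to 0.853), below even and short of 2-fold, and that of sedentary infarct over sedentary 0.899 (0.782 to 1.03). Vegfc was also highest in running infarct, 2.04-fold (1.64 to 2.54) higher in running infarct than in sedentary infarct and 0.714 (0.436 to 1.16) without infarct. In running infarct 62 of 195 members held Vegfc, and 59 of its 319 UMIs came from 1 nucleus. The ratio just above 2-fold therefore leans on that nucleus. Csmd1 was 2.23-fold (1.80 to 2.78) higher in running than in sedentary. Tmem108, Vegfc and Csmd1 in these comparisons were described because they stand in the lists or among the named infarct genes.

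Heat shock genes were the list with the largest difference between the uninjured libraries. Most of these genes code for chaperones or their helpers, and the factor HSF1 turns on many of them when proteins unfold. The list also holds the transcription factor genes Hsf1 and Hsf2. Of 14 measured, 7 were lower in running than in sedentary and none higher, beside 1.34 and 0.956% of all measured genes, with a median log2 ratio of -0.97, and of 15 measured between the infarct libraries none was called, with a median of -0.13. The sedentary infarct over sedentary comparison gave 6 of 16 lower, beside 2.42% of all, with a median of -0.92, and running infarct over running none of 12, with -0.11. Every difference thus involved the sedentary library. Summed over 24 genes, members were at 2412, 1378, 1321 and 1277 CPM. The same step was seen in fibroblast nuclei, at 2696, 1491, 1142 and 1184 CPM, and in endothelial nuclei, at 3197, 1572, 1244 and 1289 CPM. What set the sedentary library apart was not tested.

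Hsph1, a large co-chaperone, had 43, 21, 22 and 25 UMIs in members, or 92.9, 39.3, 32.1 and 27.5 CPM, 2.37-fold (1.37 to 4.20) lower in running than in sedentary. Hsp90aa1, the inducible HSP90, was at 171, 84.1, 70.1 and 58.3 CPM, 2.03-fold lower, and Bag3, a co-chaperone of HSP70, at 143, 48.6, 75.9 and 73.7 CPM, 2.93-fold lower. Hspa5, the chaperone of the endoplasmic reticulum, was at 242, 87.9, 86.1 and 143 CPM, 2.75-fold (1.94 to 3.96) lower. Hspd1, the mitochondrial chaperonin, was at 71.3, 33.7, 35.03 and 29.7 CPM, 2.12-fold lower. In each of these genes the sedentary members stood above those of the other libraries. Dnaja1 (2.09-fold) and Hspa4l (2.25-fold) were lower as well.

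**Figure D5:**
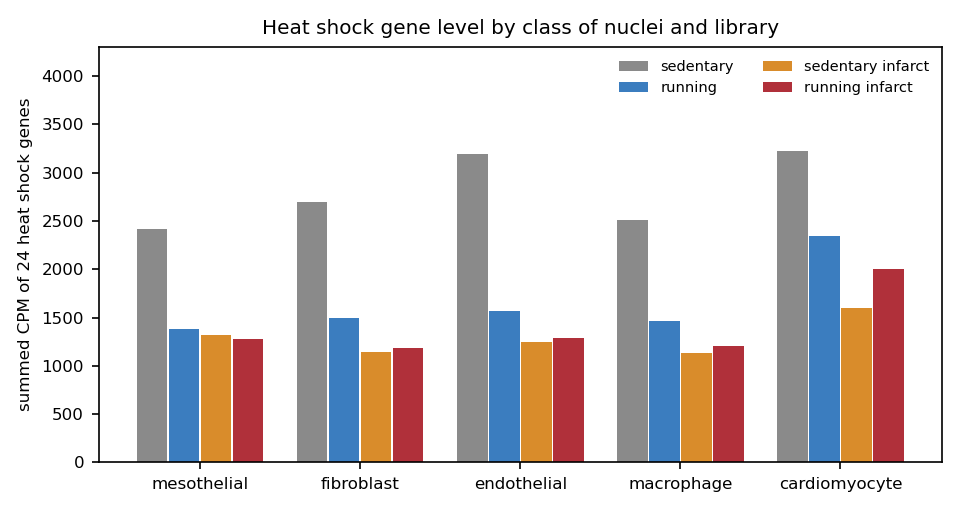
CPM summed over 24 heat shock genes in mesothelial and reference nuclei, 1 bar per library. The sedentary library is highest in each class, with 2412 CPM in members against 1277 to 1378 CPM in the other libraries.

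The promoters of Hsph1 and Hspd1 are shown because these genes moved together in the sedentary library and their windows hold the most copies of the heat shock element among the genes lower in running. The element was searched as GAANNTTC and TTCNNGAA, each its own reverse complement, so a search of 1 strand covers both, and copies may overlap. Windows reach from 250 bases before to 50 bases after a gene start, on the gene's strand, from RefSeq on GRCm38.p6. Capitals mark the elements. The Hsph1 window, chr5:149636266-149636565 on the minus strand, holds 3 copies, and the Hspd1 window, chr1:55087883-55088182 on the minus strand, holds 3.
Hsph1: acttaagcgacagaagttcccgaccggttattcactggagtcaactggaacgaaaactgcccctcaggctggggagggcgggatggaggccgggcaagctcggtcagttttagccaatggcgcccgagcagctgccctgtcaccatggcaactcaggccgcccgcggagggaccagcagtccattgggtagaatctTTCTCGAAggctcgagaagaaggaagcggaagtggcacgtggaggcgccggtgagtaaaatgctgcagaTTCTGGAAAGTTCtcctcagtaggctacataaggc
Hspd1: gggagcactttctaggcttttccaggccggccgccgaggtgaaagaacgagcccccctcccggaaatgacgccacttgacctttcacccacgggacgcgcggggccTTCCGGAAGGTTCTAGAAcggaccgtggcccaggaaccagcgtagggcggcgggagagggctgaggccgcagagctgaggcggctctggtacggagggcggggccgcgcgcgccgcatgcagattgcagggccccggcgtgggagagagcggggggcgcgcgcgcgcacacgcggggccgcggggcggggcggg
Of the 24 heat shock genes 19 had a window and 12 of these held the element, against 4587 of 27025 genes with a window (17.0%). Among 6 genes lower in running that had a window, 4 held it. The windows of the others, Hspa5 and Hspa4l, held 0 copies. A second annotated start of Hspd1 has a window with 0 copies. A match describes letters in a window and shows no binding.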

How the data were processed

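The deposited files hold raw UMI counts per gene and barcode from a 10x Genomics 3' assay on nuclei, 1 matrix per library, with barcodes called by the authors. Cell Ranger 7.1 and the GRCm39 genome build are named in the submitters' processing notes. The matrices list 25906 genes, 37 of them mitochondrially encoded, and 18 symbols occur more than once. No annotation of nuclei was used.

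A nucleus needed 300 genes or more and no more than 20% of its UMIs from mitochondrial genes. No doublet caller was run: cardiomyocyte, endothelial and macrophage transcripts barred a nucleus, and members with over 2 fibroblast UMIs were left out as an alternative. The rule, the 28 gene lists and the tests were chosen with earlier results of these data known.

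Counts were summed over the members of a library. CPM carry exact Poisson, ratios exact conditional binomial, shares Clopper-Pearson and share ratios log-scale intervals at 95%. Since each group is 1 library, nothing was tested. The text names the rule genes and list members whose interval lay wholly beyond 1.5-fold in an infarct comparison. Other list members, such as Tbx18 and Aldh1a2, are named outside that limit. Also named are up to 15 higher and 15 lower genes called in both infarct comparisons (up to 6 and 6 for running), ranked by the weaker interval bound. Ranked genes could stand no more than 5-fold below any reference class, with under 50% of UMIs in 3 nuclei, both only in the libraries where the gene is higher. In the uninjured libraries some higher genes, such as Itgbl1, Slit2, Nav1, Nkain3 and Nppa, break a limit. The ratio step was tested on simulated data. Python 3.11.15, numpy 2.4.6, scipy 1.17.1, pandas 2.3.3 and matplotlib 3.10.9 were used. Alternatives were a stricter rule, other limits on mitochondrial UMIs and genes, nuclei split by Y-linked UMIs, members without the deepest nuclei, other scalings and other count and fold limits, and at least 10 rule-gene UMIs, an alternative chosen after the data were seen. Promoter windows come from RefSeq tables on GRCm38.p6 and were used for letters only. Some results are not reported here.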

Additional observations from a re-analysis of the deposited data

Results flagged for a closer look

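Grin2a, a glutamate receptor subunit, had a log2 ratio of -1.60 for running over sedentary and 1.04 for running infarct over sedentary infarct. It had 131, 50, 134 and 365 UMIs in 30, 19, 30 and 64 members. It was called in opposite directions in the pairs without and with infarct. The difference between the pairs was not tested, and the gene was chosen after its values were seen.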

How the results depend on the processing

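Single libraries, 525 members and a limit of 50 UMIs bound every result, and no interval covers differences between animals. No paired analysis was possible because each group has 1 library and no result comes from a test. The number of genes called moved with the nuclei taken and with the UMI and fold limits. Without members with over 2 fibroblast UMIs, 50 genes were higher and 66 lower in the sedentary pair, 128 and 89 in the running pair, and 6 and 22 in both, 60 differed between running and sedentary, and 2 were called the same way in both running comparisons. Under 5% mitochondrial UMIs, 123 genes were higher in the sedentary pair, 172 differed between running and sedentary and 4 were called in both running comparisons. Y-positive members gave 119 higher genes in the sedentary pair, 28 higher and 27 lower in both infarct comparisons and 5 in both running ones, and members without Y-linked UMIs 27 lower in both. Both running comparisons gave 2 genes without the 3 deepest members and 2 with every nucleus weighed the same.

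With at least 20 UMIs, 400 genes were higher and 311 lower in the sedentary pair, 418 and 365 in the running pair, 111 and 77 in both, 370 differed between running and sedentary, 425 between the infarct libraries and 22 in both running comparisons. With at least 100 UMIs the same counts were 68, 58, 118, 74, 29, 28, 25, 56 and 0. With 1.5-fold in place of 2-fold they were 461, 365, 514, 493, 148, 151, 418, 523 and 24.

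The share ratio of sedentary infarct over sedentary was 0.947 under 5% mitochondrial UMIs, a reversed direction. Running infarct over running was 3.36 without members with over 2 fibroblast UMIs and 1.82 with at least 10 rule-gene UMIs. Running over sedentary was 0.566 under 5% mitochondrial UMIs, and running infarct over sedentary infarct 1.71 without members with over 2 fibroblast UMIs and 1.59 under 5% mitochondrial UMIs. Among named genes, the log2 ratio of Fndc1 in the sedentary pair was -0.02 in members without Y-linked UMIs and that of Pik3c2g for running over sedentary was -0.24 in Y-positive members. The cause was not tested. Of the 57 higher and 45 lower genes, 40 and 40 still met the rule with at least 10 rule-gene UMIs and 57 and 45 with median-of-ratios scaling.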
